A study of Mus musculus with 8 samples.

Results

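The genes examined were 10 transcripts of the integrated stress response in mouse CD8+ T cells: the transcription factor genes *Atf4*, *Ddit3*, *Atf3* and *Atf5*, the *Atf4* target genes *Asns*, *Trib3*, *Chac1*, *Sesn2* and *Nupr1*, and *Ppp1r15a*, which encodes a subunit of the phosphatase that ends the response. They were chosen by name. All 10 were among the 22520 genes and assembled transcripts of the deposited table, and all 10 passed the filter on low values that left 10666 for testing. The samples were 8 bulk RNA-seq libraries of splenic CD8+ T cells kept in culture. Of these, 4 came from cells given 40 µM DADA and 4 from cells given an equal volume of the solvent DMSO, in both cases from day 3 until harvest on day 6. DADA is diisopropylamine dichloroacetate, an inhibitor of pyruvate dehydrogenase kinase. All cells, controls included, were under persistent stimulation with antibodies to CD3 and CD28 together with IL-2, a culture that models T cell exhaustion outside the animal. The genotype field of the labels reads "control" for the DMSO and "model" for the DADA libraries, although the study describes cells of wild-type mice that differed in treatment. The study's C57BL/6J mice were males of 6 to 8 weeks, and it purified CD8+ T cells from spleen with a magnetic negative selection, but it does not tie a mouse to each of these libraries. Whether each library came from its own mouse or culture is not stated, so the p-values measure the spread between these libraries, which may be technical.

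In the integrated stress response, a kinase that senses a stress phosphorylates the α subunit of the initiation factor eIF2, which slows translation as a whole while the *Atf4* message is translated more. The ATF4 protein then binds, with C/EBP family partners, to response elements of genes for amino acid synthesis, amino acid transport and tRNA charging, and it drives further factors such as CHOP, the product of *Ddit3*. In T cells, amino acid supply after activation is known to depend in part on ATF4. ATF4 output is set largely by translation, so mRNA levels such as those measured here describe transcripts and not the phosphorylation of eIF2α or the amount of ATF4 protein.

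With DADA, the 10 transcripts did not move in one direction. *Ppp1r15a*, *Atf3* and *Atf5* rose, *Nupr1*, *Asns*, *Ddit3*, *Sesn2*, *Atf4* and *Trib3* fell, and *Chac1* did not pass the test. The largest fall was that of *Nupr1*, to 59.4% of its DMSO level, and the largest rise that of *Ppp1r15a*, to 153.8%. *Atf4* itself fell, to 88.9% of its DMSO level. Differences were tested with limma on log2(FPKM + 1) across all genes, and a call was an adjusted p under 0.05 after Benjamini-Hochberg adjustment. FPKM divides the fragments of a gene by its transcript length and by all fragments mapped in that library, so levels of different genes can be set side by side. Of the 10666 genes and assembled transcripts tested, 66.2% were called in either direction, 30.9% as higher and 35.3% as lower with DADA, and in 60.6% the libraries of the groups did not overlap. Against that background, 9 of the 10 stress response genes were called, 3 higher and 6 lower, and the libraries of the groups did not overlap for 8. Their median difference was -0.13 on the log2 scale, beside -0.02 over all genes tested. The balance of directions over all genes depended on the scaling. With libraries rescaled to the same total, 3602 genes were called higher and 3379 lower, with a median of 0.0095.

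**Figure D1:**
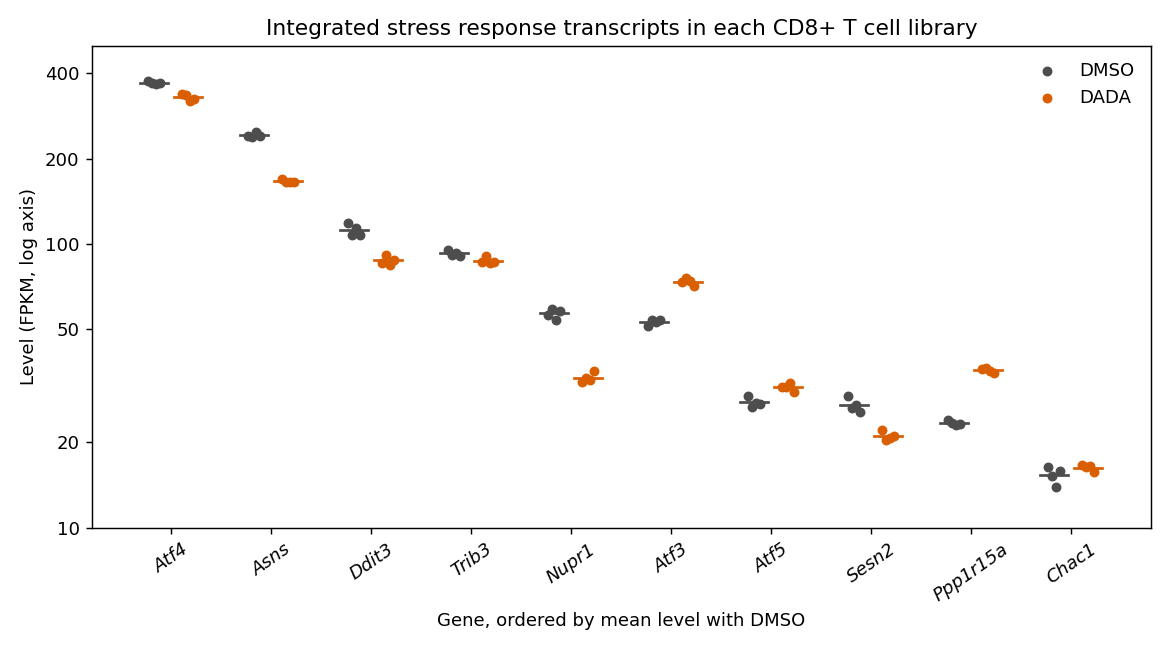
Level of each of the 10 transcripts in FPKM on a log axis, with 1 point for each of the 4 DMSO libraries (grey) and the 4 DADA libraries (orange) and a line at the group mean. *Atf4* and *Asns* have the highest levels in both groups, the groups are separated for 8 genes, and they overlap for *Trib3* and *Chac1*.

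The promoters of several of these genes hold the element that ATF4 and C/EBP proteins are known to bind as a pair, called CARE. RefSeq promoter windows (GRCm38.p6, 250 bases before to 50 bases after each start) were found for all 10 genes. The letters TGATGNAA occurred on either strand in the windows of 5 of them, *Atf3*, *Chac1*, *Trib3*, *Asns* and *Nupr1*, and in 4.51% of the 27025 genes in the promoter table. The 10 genes were chosen as members of the response, known *Atf4* targets among them. A share above that of all genes is therefore not an independent result. The palindrome TGACGTCA, the cAMP response element that ATF and CREB factors are known to bind, occurred in the window of 1, *Ppp1r15a*, and in 2.03% of all genes. The third motif searched on both strands, the endoplasmic reticulum stress element ERSE, was in the window of none of the 10 and in 0.137% of all genes. Each motif was counted on its own. The windows below show these letters in capitals within their upstream flanks, read on the strand of the gene, because they set side by side genes that rose, genes that fell and a gene that was not called.
*Atf3*, chr1:191183411-191183468, minus strand: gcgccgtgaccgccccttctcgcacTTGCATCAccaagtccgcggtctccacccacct
*Chac1*, chr2:119351024-119351081, plus strand: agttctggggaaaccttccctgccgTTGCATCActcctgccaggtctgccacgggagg
*Nupr1*, chr7:126625548-126625605, minus strand: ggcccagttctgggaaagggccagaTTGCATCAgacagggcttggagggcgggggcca
*Asns*, chr6:7693210-7693257, minus strand: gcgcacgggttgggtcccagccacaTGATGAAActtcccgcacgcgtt
*Ppp1r15a*, chr7:45526269-45526305, minus strand: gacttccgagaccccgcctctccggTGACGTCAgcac

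The same 8 letters, which are the CARE on the opposite strand, stood in capitals in *Atf3*, *Chac1* and *Nupr1*. They began at -110 from the start site in both *Atf3* and *Nupr1*, and at -193 in *Chac1*. In *Asns* the element lay on the strand of the gene at -23. The *Trib3* element began at position 14 after the start site, within the transcript, and is not shown. With DADA, *Atf3* rose, *Nupr1* fell and *Chac1* was not called. Whether the element bears on these directions was not tested. A match of letters is a description of the window and not a measurement of binding.

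Among the transcription factors, *Atf4* encodes the central activator of the response and had the highest level of the 10 transcripts. Its values were 375.3, 369.6, 366.9 and 370.1 FPKM in the DMSO libraries and 337.8, 336.7, 318.5 and 324.7 FPKM in the DADA libraries. Every DADA library lay below every DMSO library. The difference was -0.17 (SE 0.0237) on the log2(FPKM + 1) scale, with an adjusted p of 1.23e-04 by limma, and 42.2% of the genes tested had a smaller difference. The fall was therefore called but not large among the genes of these libraries.

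*Ddit3* encodes CHOP, a C/EBP family factor induced when the response persists. Its level was 118.8, 107.7, 114.4 and 108.0 FPKM with DMSO and 86.0, 91.7, 84.7 and 87.8 FPKM with DADA. The groups did not overlap, and the 4 DADA libraries were all lower. The difference was -0.35 (SE 0.0374, adjusted p = 1.63e-05, limma). In GENCODE M21, 68 of the 1713 exon bases of *Ddit3* (3.97%) lie opposite exons of *Mars1*, and 105 (6.13%) are shared with a second gene of the same name. *Mars1*, a tRNA synthetase gene, measured 82.6 ± 1.999 FPKM (SD, n = 4) in DMSO cells and 80.4 ± 2.17 FPKM in DADA cells and was not called (-0.04, adjusted p = 0.228, limma).

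*Atf3*, a gene for a factor induced by ATF4 and by several other stress and mitogen signals, moved the other way. It was measured at 51.3, 53.9, 53.2 and 54.1 FPKM with DMSO and at 73.5, 76.0, 74.2 and 71.0 FPKM with DADA. All 4 DADA libraries stood above all 4 DMSO libraries. The rise was 0.46 (SE 0.0279, adjusted p = 2.46e-07, limma), larger in size than the difference of 81.7% of the genes tested. As a ratio computed in each library and chosen after these values were seen, *Atf3* over *Ddit3* was 0.475 ± 0.0330 (SD, n = 4) with DMSO and 0.842 ± 0.0295 with DADA.

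*Atf5* encodes a factor that is translated under the same control as ATF4 and is linked to mitochondrial stress. Its level was 29.2, 26.5, 27.6 and 27.4 FPKM with DMSO and 31.3, 31.4, 32.4 and 30.1 FPKM with DADA. The groups did not overlap, with a gap smaller than the range of either group. The rise was 0.17 (SE 0.0350, adjusted p = 0.0015, limma). Of its 1993 exon bases, 82 (4.11%) lie opposite exons of *Nup62*, a nuclear pore gene, which fell from 66.8 ± 1.10 to 58.0 ± 1.22 FPKM (-0.20, adjusted p = 3.62e-05, limma). Whether counting used the strand is not given in the sources used here, and without it reads over such shared bases cannot be assigned to either gene.

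Of the effector genes, *Asns*, *Nupr1* and *Sesn2* fell with no overlap between the groups. *Asns* encodes asparagine synthetase, a standard readout of ATF4 activity. It was at 240.9, 237.9, 247.9 and 241.3 FPKM with DMSO and at 169.0, 165.9, 165.2 and 164.9 FPKM with DADA. The groups lay far apart relative to their spread, with coefficients of variation of 1.74% and 1.13%. The difference was -0.54 (SE 0.0202, adjusted p = 8.71e-09, limma), and DADA libraries held 68.7% of the DMSO level. *Asns* over *Atf4*, a ratio also chosen after the values were seen, was 0.653 ± 0.0156 with DMSO and 0.505 ± 0.0111 with DADA, so the 2 transcripts did not fall in proportion.

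*Nupr1* encodes a small stress-induced chromatin protein that works with ATF4 and CHOP. Its values were 56.3, 59.1, 54.1 and 58.2 FPKM with DMSO and 32.7, 33.7, 33.1 and 35.8 FPKM with DADA. No DADA library reached the lowest DMSO library. The fall was -0.73 (SE 0.0370, adjusted p = 7.17e-08, limma), and 92.6% of the genes tested had a smaller difference. *Nupr1* was the fifth most abundant of the 10 transcripts with DMSO and the seventh with DADA, where its libraries overlapped with those of *Ppp1r15a*.

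*Sesn2*, which encodes a sestrin that restrains mTORC1 when leucine is low, was at 29.1, 26.5, 27.0 and 25.6 FPKM with DMSO and at 22.2, 20.3, 20.8 and 21.0 FPKM with DADA. The groups did not overlap. The difference of -0.35 (SE 0.0424, adjusted p = 4.89e-05, limma) was close in size to that of *Ddit3*. The other sestrin genes also fell, *Sesn1* from 8.91 to 6.72 FPKM (adjusted p = 8.01e-05, limma) and *Sesn3* from 16.6 to 15.4 FPKM (adjusted p = 0.0294, limma), and both were named after their values were seen.

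*Trib3* encodes a pseudokinase that is induced by ATF4 and CHOP and feeds back on ATF4. Its level was 95.01, 91.8, 93.3 and 90.6 FPKM with DMSO and 86.2, 90.7, 85.5 and 86.8 FPKM with DADA. The second DADA library lay within the range of the DMSO libraries, and the other 3 lay below it. The difference was -0.09 (SE 0.0258, adjusted p = 0.0146, limma), whereas a two-sided exact permutation test on FPKM gave p = 0.0571 (n = 4 per group), where 0.0286 is the smallest p this design allows. This call was lost when libraries were rescaled to the same total (adjusted p = 0.0597), by median-ratio size factors (adjusted p = 0.0548) or by quantile normalization (adjusted p = 0.394).

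*Chac1* encodes an enzyme that degrades glutathione and is a target of ATF4. It had the lowest level of the 10 in both groups, at 16.3, 15.2, 13.9 and 15.8 FPKM with DMSO and 16.6, 16.3, 16.5 and 15.7 FPKM with DADA. The groups overlapped, and the spread was wider with DMSO. The difference was 0.08, with a 95% interval from -0.02 to 0.19 and an adjusted p of 0.148 by limma, and the exact permutation test gave p = 0.143. A rise of the size seen in *Atf3* lies outside this interval. By the estimated depth, *Chac1* rested on 308 to 512 fragments per library, for which counting error alone gives a coefficient of variation of up to 5.70%.

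*Ppp1r15a* encodes GADD34, the inducible subunit that directs protein phosphatase 1 to eIF2α and so reverses the response. It was at 23.9, 23.4, 23.0 and 23.1 FPKM with DMSO and at 36.3, 36.6, 35.8 and 34.97 FPKM with DADA. Within each group the values were tight, and all DADA libraries were higher. The rise was 0.60 (SE 0.0261, adjusted p = 2.50e-08, limma), and 89.0% of the genes tested had a smaller difference. Its constitutive counterpart *Ppp1r15b* also rose, from 31.0 ± 0.663 to 39.3 ± 0.571 FPKM (0.33, SE 0.0252, adjusted p = 1.39e-06, limma). The ratio of *Ppp1r15a* to *Ppp1r15b* in each library, chosen after the values were seen, was 0.753 ± 0.0290 with DMSO and 0.913 ± 0.0292 with DADA.

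**Figure D2:**
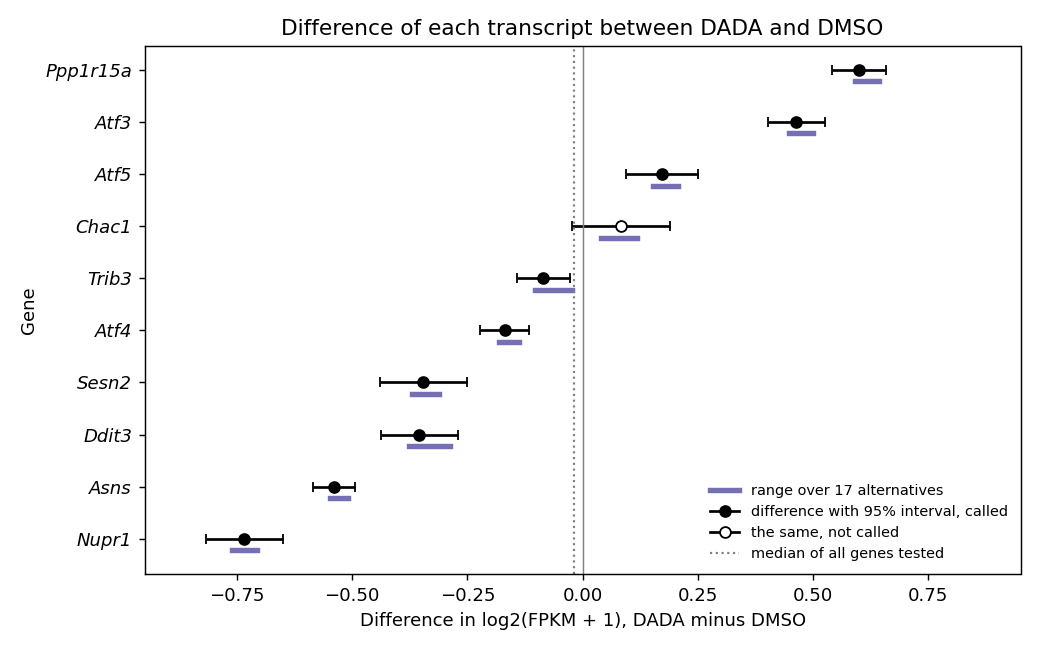
Difference of each transcript between DADA and DMSO in log2(FPKM + 1) (x axis), with its 95% interval (black, filled where called) and the range of its estimate over 17 other ways of processing the data (violet). *Ppp1r15a*, *Atf3* and *Atf5* lie to the right of 0, 6 genes lie to the left, the interval of *Chac1* spans 0, and the violet range of *Trib3* ends at -0.02.

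In the order of levels with DMSO, *Atf4* was followed by *Asns*, *Ddit3*, *Trib3*, *Nupr1*, *Atf3*, *Atf5*, *Sesn2*, *Ppp1r15a* and *Chac1*. Neighbours whose libraries overlapped were *Nupr1* with *Atf3* and *Atf5* with *Sesn2*. With DADA the order was *Atf4*, *Asns*, *Ddit3*, *Trib3*, *Atf3*, *Ppp1r15a*, *Nupr1*, *Atf5*, *Sesn2* and *Chac1*. The neighbours that overlapped there were *Ddit3* with *Trib3* and *Ppp1r15a* with *Nupr1*. *Ppp1r15a* thus stood ninth with DMSO and sixth with DADA.

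Of the 4 kinases that phosphorylate eIF2α, 2 rose, 1 fell and 1 was not called. The share called was 75%, near the 66.2% over all genes tested. For the lists below, the shares over all genes tested were 30.9% higher and 35.3% lower, with a median difference of -0.02. *Eif2ak2* encodes PKR, which senses double-stranded RNA and is known as an interferon-stimulated gene, and its level was 7.52 to 8.46 FPKM with DMSO and 25.7 to 28.5 FPKM with DADA. The rise was 1.66 (SE 0.0430, adjusted p = 5.40e-10, limma). *Eif2ak3*, which encodes PERK, the kinase of endoplasmic reticulum stress, rose from 9.21 ± 0.530 to 15.2 ± 0.324 FPKM (0.66, SE 0.0423, adjusted p = 3.92e-07, limma). *Eif2ak4*, which encodes GCN2, the sensor of uncharged tRNA, was at 10.8 ± 0.451 and 10.6 ± 0.619 FPKM and was not called (-0.02, 95% interval -0.12 to 0.09, adjusted p = 0.789, limma), and its sign changed with the scaling and without the fourth DMSO or the second DADA library. *Eif2ak1*, which encodes HRI, the kinase activated by haem shortage and mitochondrial stress, fell from 18.6 ± 0.572 to 17.3 ± 0.411 FPKM (-0.10, SE 0.0324, adjusted p = 0.0223, limma). That call was lost without the fourth DMSO library (-0.08, adjusted p = 0.0603), without the fourth DADA library (-0.08, adjusted p = 0.0659), under 2 other scalings and with the replicate number as a block (adjusted p = 0.0558).

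**Figure D3:**
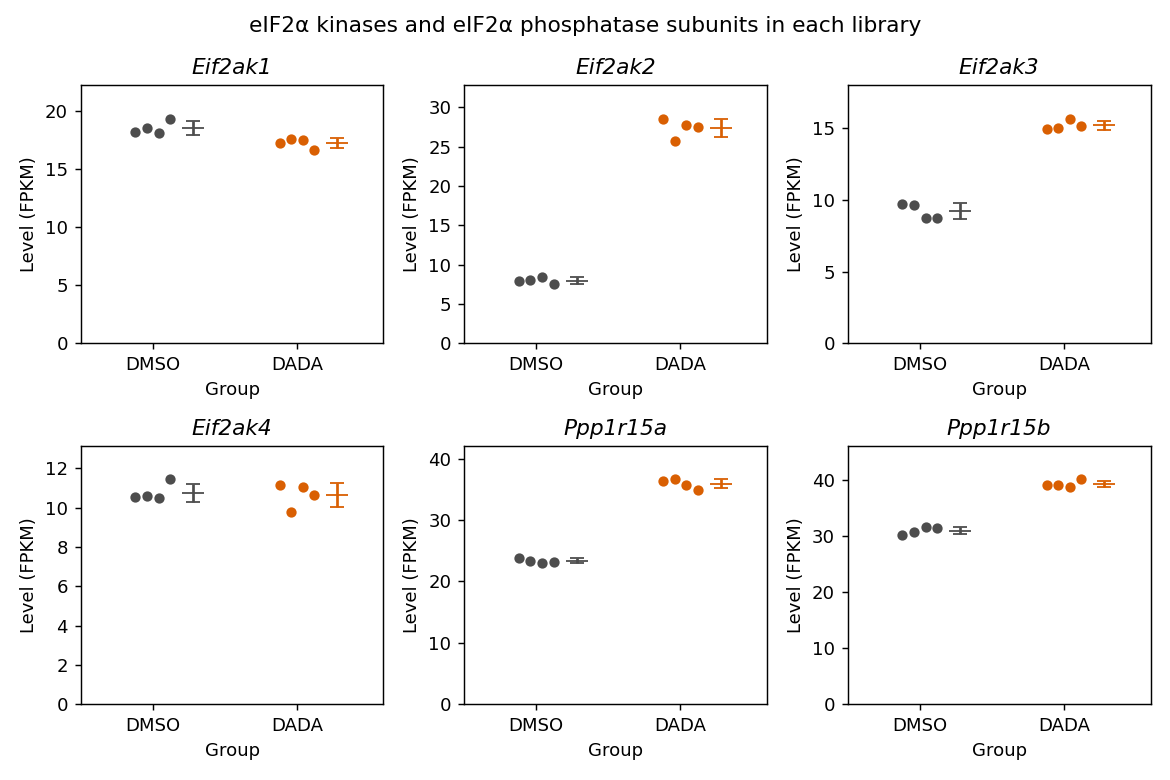
Level in FPKM from 0 of the 4 eIF2α kinase genes and of both genes for the eIF2α-directed phosphatase subunits, with 1 point per library and the group mean ± SD beside it. The DADA libraries lie above the DMSO libraries for *Eif2ak2*, *Eif2ak3*, *Ppp1r15a* and *Ppp1r15b*, and below them for *Eif2ak1*, and for *Eif2ak4* the groups overlap.

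The genes listed for the machinery downstream of the kinases moved in both directions, as did the genes tested as a whole. Of 13 genes listed for eIF2, its exchange factor eIF2B and the phosphatase, 5 rose, 7 fell and 1 was not called. The share called was 92.3%, beside 66.2% over all genes tested, and the median was -0.10, beside -0.02. The list also holds *Eif2a*, named here outside the naming rule, which encodes the separate initiation factor eIF2A and was 1 of the 5 that rose, so 4 genes of the named complexes rose. The largest falls were in *Eif2b3*, an eIF2B subunit, from 46.3 ± 1.89 to 29.9 ± 1.33 FPKM (-0.61), and in *Eif2s1*, which encodes eIF2α itself, from 88.7 ± 1.98 to 69.5 ± 1.18 FPKM (-0.35). Beside *Ppp1r15b*, the largest rise was in *Eif2b2*, another eIF2B subunit, from 31.6 ± 1.05 to 35.8 ± 1.05 FPKM (0.18).

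Of 5 genes listed around the mitochondrial stress relay to HRI and GCN2 activation, 4 fell, none was called higher and 1, *Dele1*, was not called. The list was not split by whether a gene promotes or restrains these steps. *Impact* and *Yme1l1*, named outside the rule, fell with adjusted p of 0.0304 and 0.0361 (limma). The DADA libraries of *Dele1*, also named outside the rule, lay at 15.6 to 16.6 FPKM, all above its DMSO libraries at 15.0 to 15.5 FPKM (0.07, adjusted p = 0.0674, limma). *Oma1*, the mitochondrial protease that cleaves DELE1, fell from 10.6 ± 0.817 to 8.00 ± 0.674 FPKM (-0.36, adjusted p = 7.73e-04, limma). *Gcn1*, the ribosome-bound activator of GCN2, fell from 24.4 ± 0.622 to 19.5 ± 0.732 FPKM (-0.31, adjusted p = 2.15e-05, limma). The number of calls in this list dropped to 2 without the fourth DMSO, the first DADA or the second DADA library. Of the C/EBP genes, *Cebpb* rose from 17.9 ± 2.50 to 23.1 ± 2.08 FPKM (0.36, adjusted p = 0.0059, limma). *Cebpg*, a dimer partner of ATF4, was at 29.4 ± 1.04 and 29.0 ± 1.03 FPKM and was not called (-0.02, adjusted p = 0.628, limma), with a sign that changed under rescaling to the same total. *Cebpa* and *Cebpd* stayed below the filter, with at most 0.0439 and 0.599 FPKM in any library.

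The known targets of ATF4 for amino acid supply were for the most part lower with DADA. Of 13 measured amino acid synthesis genes, 12 fell and 1 rose, with a median of -0.39. *Cth*, the enzyme that makes cysteine from cystathionine, fell from 118.3 ± 3.78 to 57.1 ± 2.03 FPKM (-1.04, adjusted p = 1.99e-09, limma), more than any of the 10 stress response genes. *Phgdh*, the first enzyme of serine synthesis, fell from 447.9 ± 11.2 to 293.0 ± 12.5 FPKM (-0.61). *Mthfd1l*, a mitochondrial folate enzyme, was the 1 measured gene that rose, from 57.9 ± 1.06 to 74.9 ± 1.58 FPKM (0.37). *Cbs*, a listed gene named here outside the rule, stayed below the filter and was not counted. Its low values were 0.432 to 0.838 FPKM with DMSO and 0.874 to 1.29 FPKM with DADA, without overlap.

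Of 20 cytosolic aminoacyl-tRNA synthetase genes, which load tRNAs with amino acids, 16 fell, 2 rose and 2 were not called, with a median of -0.26. The number of calls in this list, 18, became 15 when libraries were rescaled to the same total and 16 under quantile normalization. *Wars1* fell by 0.58 and *Hars1* by 0.53 on the log2(FPKM + 1) scale, whereas *Qars1* rose by 0.24. Of 10 amino acid transporter genes, 6 fell, 2 rose and 2 were not called, with a median of -0.12, beside -0.02 over all genes tested. The share of transporter genes called was 80%, beside 66.2% over all genes tested. *Slc7a3*, a cationic amino acid transporter, fell from 61.0 ± 3.28 to 36.7 ± 0.732 FPKM (-0.72), and *Slc7a11*, the cystine transporter, from 3.85 ± 0.357 to 2.69 ± 0.148 FPKM (-0.39). *Slc38a2*, a transporter of small neutral amino acids, rose from 54.3 ± 1.599 to 80.6 ± 0.451 FPKM (0.56), and *Slc7a5*, the large neutral amino acid transporter, from 186.7 ± 1.99 to 215.3 ± 3.84 FPKM (0.20).

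Among 24 measured genes for other effectors listed as ATF4 or CHOP targets, 12 rose, 7 fell and 5 were not called. The share called was 79.2%, beside 66.2% over all genes tested, and the median was 0.07, beside -0.02. *Ero1a*, an oxidase of the endoplasmic reticulum, rose from 110.3 ± 2.11 to 452.3 ± 4.11 FPKM (2.03, adjusted p = 2.68e-12, limma). *Ddit4*, which encodes the mTORC1 inhibitor REDD1, rose from 88.8 ± 5.75 to 246.9 ± 4.88 FPKM (1.47, adjusted p = 1.12e-09, limma). Both are also known as targets of hypoxia-inducible factors. *Gadd45a* fell from 6.37 ± 0.611 to 4.19 ± 0.588 FPKM (-0.51), and *Hspa9*, a mitochondrial chaperone, from 548.4 ± 11.7 to 420.6 ± 12.3 FPKM (-0.38).

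The arms of the unfolded protein response that do not run through eIF2α moved mostly upward. Of 16 genes of the IRE1 and ATF6 arms, 12 rose, 1 fell and 3 were not called, with a median of 0.42. *Dnajb9*, a chaperone cofactor of the reticulum, rose from 3.08 ± 0.431 to 6.29 ± 0.458 FPKM (0.84), and *Creld2*, a secreted stress protein, from 19.4 ± 0.7998 to 32.2 ± 2.05 FPKM (0.70). *Ern1*, which encodes IRE1α, was the gene that fell, from 4.11 ± 0.137 to 3.14 ± 0.183 FPKM (-0.30). No test of one list against another was made.

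**Figure D4:**
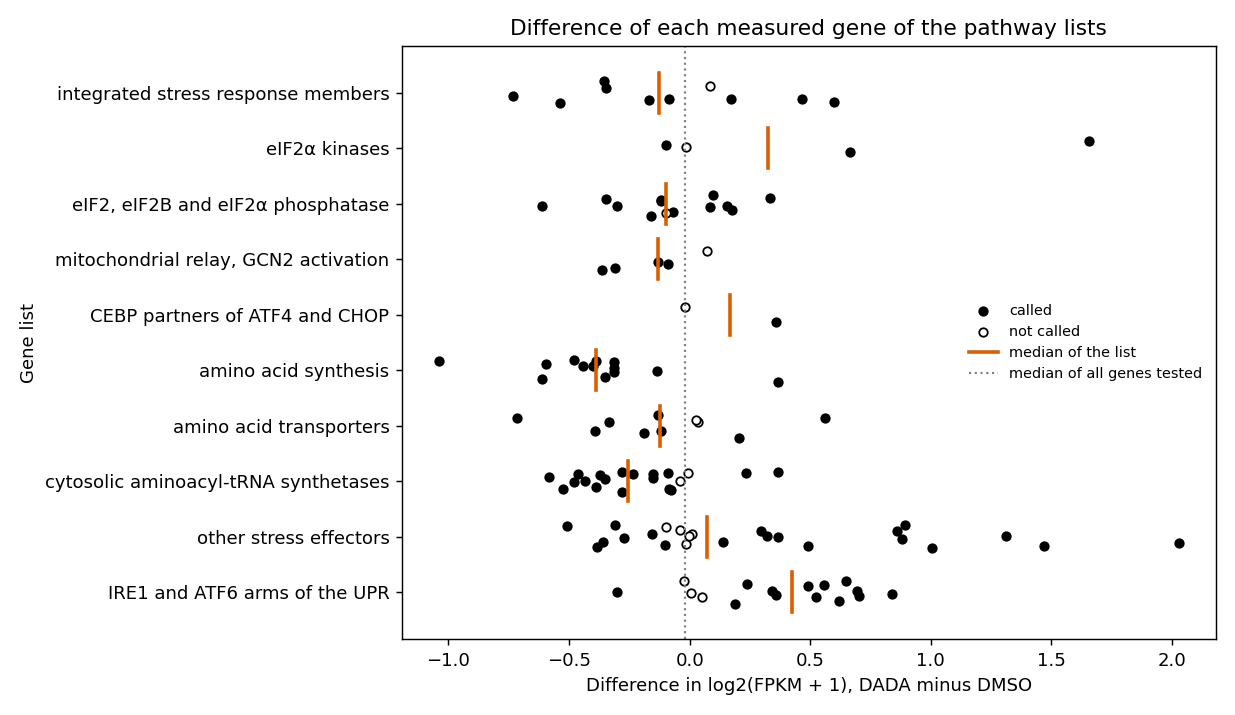
Difference in log2(FPKM + 1) between DADA and DMSO for each measured gene of the 10 stress response transcripts and 9 pathway lists, with called genes filled, the median of each list in orange and the median of all genes tested as a dotted line. The amino acid synthesis and tRNA synthetase genes lie mostly to the left of 0, the IRE1 and ATF6 genes mostly to the right, and the 10 stress response transcripts on both sides.

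The defining markers of CD8+ T cells were present in all 8 libraries. The summed level of *Cd3d*, *Cd3e*, *Cd8a* and *Cd8b1* was 457.7 to 468.2 FPKM with DMSO and 556.2 to 576.6 FPKM with DADA, so these T cell markers moved with the treatment as well. The summed level of 5 myeloid markers was 3.44 to 3.96 FPKM with DMSO and 5.11 to 5.59 FPKM with DADA, nearly all of it *Cd68*, while *Csf1r* and *Adgre1* were listed at 0 in all 8 libraries. The 4 B cell markers summed to 2.59 to 3.54 and 2.36 to 3.09 FPKM, nearly all of it *Cd79b*, and the sums of the CD4 T cell, NK cell and erythroid markers stayed below 1 FPKM in every library. The part of these shifts in the values above was not tested. In bulk RNA, a change in the share of cells that express a gene and a change in its level per cell cannot be told apart. The depth, estimated from the steps between low FPKM values, was 13510000 to 16330000 fragments with DMSO and 15270000 to 19120000 with DADA.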

How the data were processed

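Bulk RNA-seq of 8 libraries, 4 with DMSO and 4 with 40 µM DADA, was analysed, with groups taken from the titles. What the authors deposited is a single table of FPKM, made from paired reads of 150 bp. The submitters' processing notes list CASAVA 1.8.2, FastQC 0.11.9, HISAT2 2.0.5, StringTie 1.3.3, Picard 1.41 and SAMtools 0.1.18, and the builds GRCh38 and GRCm39 with no role, so coordinates of the counted features are not given. The labels and the study's methods name different library kits, and the use of strand is not given in the sources used here. FPKM tables hold no counts, so depth was only estimated and a count test was left out. At the estimated depth, 38.8% to 52.8% of low values lay within 0.1 of a whole fragment count. A depth fixed beforehand would give 20% by chance. The depth used was fitted to the same values, so its chance share is higher and was not determined.

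Values were analysed as log2(FPKM + 1) for rows with at least 1 FPKM in at least 4 of 8 libraries (10666 of 22520, 165 of them assembled transcripts), with limma 3.58.1 in R 4.3.3, eBayes with a trend, and Benjamini-Hochberg adjustment across these rows. Differences of low genes are understated by the added 1. Tested on a simulated DADA against DMSO table of 10666 genes, 200 of them changed, the fit recovered 60% at a difference of 0.25, 98.4% at 0.5 and 95.9% at 1, with 6 false calls. In the data 66.2% of genes were called, and the adjustment depends on that share. The recovery and the false calls of the simulation therefore do not carry over to the calls reported above. For each gene alone, a two-sided exact permutation test on FPKM was added. The 10 genes and the 9 pathway lists were chosen with earlier results of these data known. All 123 genes were in the table, 19 of them under another symbol matched by gene ID. Named were all 10 genes, every eIF2α kinase and C/EBP gene, and up to 2 called genes with the largest rise and fall of each other list. A gene that this rule selects is not reported here. Genes and ratios outside this rule are marked in the text, apart from the cell type markers, *Mars1* and *Nup62*. The last of these are given because their exons overlap those of *Ddit3* and *Atf5*. Alternatives were a pseudocount of 0.1, no filter, a mean of at least 5 FPKM, quantile normalization, median-ratio scaling, scaling to equal totals (TPM), no trend, the replicate number as a block, no assembled transcripts, and each library left out in turn. Promoter windows came from RefSeq (GRCm38.p6), exon overlaps from GENCODE M21. Tables and figures were made in Python 3.11.15 with numpy 2.4.6, pandas 2.3.3, scipy 1.17.1 and matplotlib 3.10.9.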

Additional observations from a re-analysis of the deposited data

Results flagged for a closer look

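In 84 groups of 4 libraries, 1 for each named gene and treatment, 4 had 1 library that stood apart by Dixon's ratio (its gap to the nearest library over the range of the group), and chance gives about 4.2 at 1 in 20. None was a group of the 10 stress response genes. For *Eif2ak4* the fourth DMSO library held 11.4 FPKM and the others 10.5 to 10.6 (ratio 0.893). For *Qars1* the fourth DADA library held 72.9 FPKM and the others 70.2 to 70.7 (ratio 0.837). For *Ero1a* the fourth DADA library held 458.5 FPKM and the others 449.7 to 450.6 (ratio 0.895). For *Cebpa*, which stayed below the filter, the second DMSO library held 0.0232 FPKM and the others were listed at 0 (ratio 1).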

How the results depend on the processing

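Over 17 alternatives, the 40 named genes tested gave 677 estimates, of which 663 kept both direction and side of the threshold, 8 lost their call and 6 changed sign. Those that changed sign belonged to genes that were not called: *Eif2ak4* (0.0146 scaled to the same total, 0.00385 with median-ratio scaling, 0.0117 without the fourth DMSO and 0.0214 without the second DADA library, in a range from -0.0362 when 1 library was left out) and *Cebpg* (0.0110 scaled to the same total and 4.75e-05 with median-ratio scaling). The lost calls were 3 of *Trib3* and 5 of *Eif2ak1*, given above. The 9 other stress response genes kept their result in every alternative in which they were fitted. Genes called over all rows numbered 7064, and 5741 (mean of at least 5 FPKM) to 7868 (no filter) in the alternatives. In the list of mitochondrial relay and GCN2 activation genes, 4 calls became 2 to 4 when 1 library was left out. The replicate numbers are shared by the groups but do not pair the libraries (correlations of same-numbered deviations -0.12 to 0.0953, with 1 of 8 libraries closest to its own number). With the replicate block 6995 genes were called, and among the named genes only the call of *Eif2ak1* changed. *Slc7a11*, *Ern1* and *Dnajb9* were not in the fit with a mean of at least 5 FPKM. Of the 10 stress response genes, *Chac1* had the fewest estimated fragments.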
